A study of Gallus gallus with 6 samples.

Results

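The nuclear factor I (NFI) family was followed through 6 Affymetrix arrays of chick embryo brain (Gallus gallus). The family has 4 genes, NFIA, NFIB, NFIC and NFIX, of 13008 genes named on the array. All 9 probe sets whose only gene symbol in the platform annotation was 1 of these were taken, out of 38535 in the table, of which 37693 are chicken probe sets. They comprise 2 for NFIA, 4 for NFIB, 2 for NFIC and 1 for NFIX. In the RefSeq annotation of the assembly GRCg7b, NFIB lies on the Z chromosome, NFIA on chromosome 8, NFIC on chromosome 28 and NFIX on chromosome 30. The probe sets were chosen by annotation, but the family itself was selected on sex differences already seen in these arrays. Those included the lack of male excess in NFIB and some Z genes near it. Differences between the sexes in the members are therefore given as a description, with a standard error (SE) and no p-value. Counts of members past a threshold in the fit over all chicken probe sets are given beside the share of all. Nothing is read from those counts.

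The arrays held 3 pools of female and 3 pools of male brain at stage 29, reached after 6 to 6.5 days of incubation per the labels. Brains were sexed genetically and each pool combined 5 to 8 embryos, with no other treatment, strain or genotype given. Female birds carry a Z and a W chromosome, and males a pair of Z chromosomes, so NFIB is the member whose copy number differs between the sexes. The labels do not say whether the pools of a sex came from separate collections, so the spread between pools may be partly technical.

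NFI proteins bind DNA as dimers through a conserved N-terminal domain, and recognise a palindromic site in promoters and enhancers. The members share this domain and can pair with each other, while their C-terminal parts, which activate or repress transcription, differ more. In chick and mouse spinal cord NFIA and NFIB are known for the switch of progenitors from making neurons to making glia. In the mouse, NFIX acts in neural progenitors and in fetal muscle, and NFIC is best known for tooth root formation.

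Signals are log2 values after RMA, in which a step of 1 unit is a doubling. Pools were compared within 1 probe set at a time, since probe sets differ in affinity and position. The array carries no detection call, so the 95th percentile of the mean signal of 689 viral probe sets, 4.21, served as a picture of background. Of the 9 NFI probe sets 8 lay above it. The exception was Gga.6791.1.A1_at of NFIB, with a mean of 3.42. The tissue was checked against marker genes. All 11 neural progenitor markers and 10 of 11 neuron markers lay above the viral level, the exception being GAP43, while among astroglial markers AQP4 and S100B did not. GFAP, the intermediate filament of astrocytes, stood near background at 4.63 ± 0.02 (SD, n = 3) in female and 4.65 ± 0.22 in male pools. HINTW, on the female-specific W, was at least 13.09 in each female pool and at most 5.96 in each male pool.

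NFIA, the member known for the onset of gliogenesis, had lower signals in male than in female pools in both of its probe sets. In Gga.710.1.S1_a_at the female pools 1 to 3 gave 7.85, 8.19 and 8.19 and the male pools 7.33, 7.56 and 7.28. Every male pool lay below every female pool, with a gap of 0.29 between the nearest values. The male minus female difference was -0.69 (SE 0.12, n = 3 pools per sex), or 1.61-fold higher in females. The suffix _a_at marks probes that match several transcripts of the same gene.

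The other NFIA probe set, Gga.710.6.S1_a_at, gave 7.43, 7.60 and 7.40 in female pools 1 to 3 and 6.61, 7.11 and 7.21 in male pools. The sexes did not overlap here either, with a gap of 0.18, although the male pools spread more widely (SD 0.32 against 0.11 in females) because male pool 1 was low. The difference was -0.50 (SE 0.16), or 1.41-fold higher in females. Without male pool 1 it shrank to -0.32. The pool that set the spread was not shared by the probe sets: in Gga.710.1.S1_a_at male pool 1 lay 0.09 below the mean of the other male pools, and in Gga.710.6.S1_a_at 0.55 below.

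NFIX, measured by Gga.707.1.S1_at alone, showed the same direction at a lower signal. Female pools 1 to 3 gave 5.29, 5.09 and 5.49, and male pools 4.78, 4.97 and 4.86. The sexes did not overlap, but the lowest female and the highest male pool were only 0.13 apart. The difference was -0.42 (SE 0.11), or 1.34-fold higher in females, and it lay between -0.52 and -0.32 when each pool was left out in turn. NFIX has no further probe set against which this could be set.

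NFIB, the Z-linked member, did not show the male excess that most Z probe sets had. In its brightest probe set, Gga.17307.1.S1_at, female pools 1 to 3 gave 6.79, 7.42 and 7.30 and male pools 7.14, 7.48 and 6.46. The sexes overlapped, and male pools held both the highest and the lowest value. The difference was -0.14 (SE 0.27), and it turned to 0.14 without male pool 3.

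Gga.709.2.S1_a_at of NFIB gave 6.52, 6.18 and 6.25 in female pools and 6.13, 6.21 and 5.63 in male pools. Male pool 3 was again the lowest, while the other male pools lay beside female pools 2 and 3. The difference was -0.33 (SE 0.16), and -0.15 without male pool 3. In Gga.6791.1.A1_s_at female pools gave 4.80, 4.72 and 5.07 and male pools 4.50, 4.71 and 4.73. These values overlapped too, with male pool 1 the lowest and female pool 3 the highest. The difference was -0.21 (SE 0.11), and it shrank to -0.11 without female pool 3. The suffix _s_at marks probes that match more than 1 transcript, possibly of different genes. The remaining probe set, under the viral level, ranged from 3.27 to 3.55 over the 6 pools with a difference of 0.07 (SE 0.09), which carries little about NFIB.

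NFIC values overlapped between the sexes in both probe sets. In Gga.708.1.S1_x_at female pools 1 to 3 gave 5.57, 5.54 and 6.06 and male pools 5.95, 5.77 and 5.57, a difference of 0.04 (SE 0.16). In Gga.708.3.S1_a_at they gave 4.45, 4.30 and 4.83, and 4.72, 4.46 and 4.39, a difference of -0.01 (SE 0.15). Female pool 3 and male pool 1 were the highest of their sex in both probe sets, and female pool 2 and male pool 3 the lowest. The sign of the sex difference depended on the pools: without female pool 3 the differences were 0.21 and 0.14, and without female pool 2 they were -0.06 and -0.12. The suffix _x_at marks probe sets in which some probes may also bind other sequences, so relatives of NFIC may add to that signal.

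**Figure D1:**
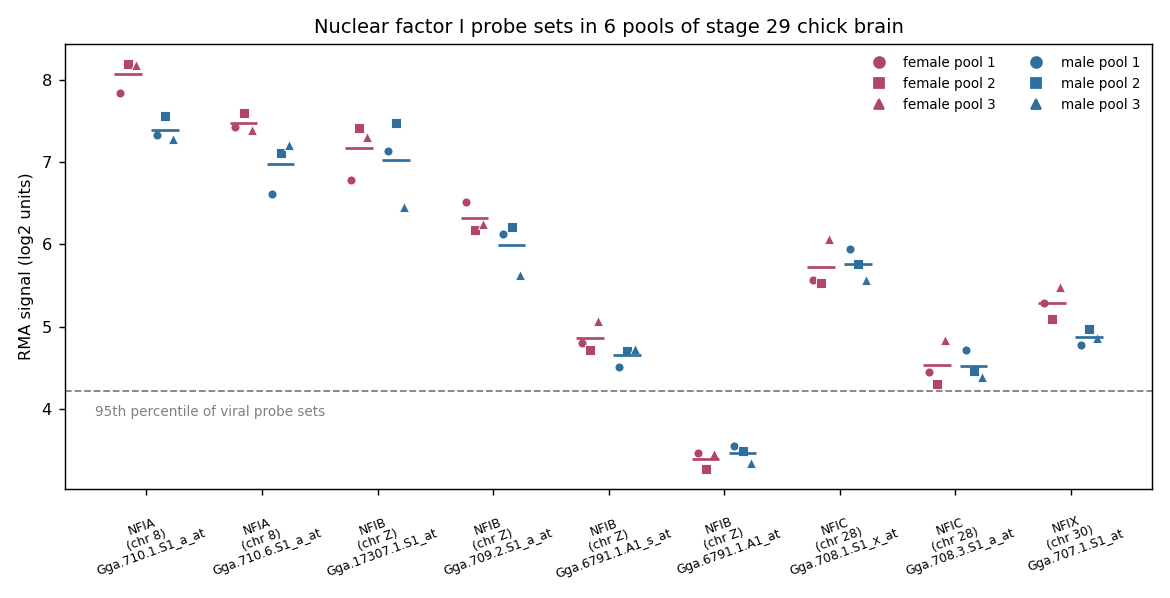
RMA signal in log2 units (vertical axis) of the 9 NFI probe sets (horizontal axis, with gene and chromosome) in each of 3 female and 3 male pools; points are pools, short bars are means, and the dashed line is the viral 95th percentile of 4.21. Male pools lie below all female pools in both NFIA probe sets and in NFIX, and overlap with them in NFIB and NFIC.

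Over the family, 7 of 9 probe sets had a difference below 0, with a median of -0.21, against a median of 0.01 over all chicken probe sets. In 3 of 9 the male pools lay below the female pools without overlap, which holds for 6.93% of all chicken probe sets. In 0 of 9 they lay above without overlap, against 9.26% of all chicken probe sets. Only the 4 NFIB probe sets are on the Z, where this share was 34.4% of 1181. At an adjusted p under 0.05 in limma (Benjamini-Hochberg over 37693 probe sets) 0 of 9 were called, against 0.554% of all. At an unadjusted p under 0.05 there were 3, both of NFIA and that of NFIX, against 10.4%. Since the family was picked knowing this contrast, nothing is read from these counts. Probe sets of 1 gene share their source and are not separate evidence.

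Set beside other probe sets, the members fell at different places. The family was picked on these same differences, so the shares below are a description and nothing is read from them. Among 25589 autosomal probe sets, whose 5th and 95th percentiles were -0.30 and 0.22, 0.254% had a lower difference than NFIA in Gga.710.1.S1_a_at and 1.11% a lower one than in Gga.710.6.S1_a_at. For NFIX this share was 1.99%, and for the NFIC probe sets 60.8% and 46.0%. These shares include dim probe sets. Over the 17164 autosomal probe sets above the viral level the 5th and 95th percentiles were wider, at -0.35 and 0.24. On the Z the median difference was 0.12 (quartiles 0.0017 and 0.36), and 0.26 over the 693 probe sets above the viral level, of which 80.7% were above 0. Of the Z probe sets 5.08%, 0.931% and 2.54% had a lower difference than NFIB in Gga.17307.1.S1_at, Gga.709.2.S1_a_at and Gga.6791.1.A1_s_at. The difference between NFIB and the other members was not tested. With the probe sets of each gene averaged before the fit, the male minus female difference was -0.59 (SE 0.11) for NFIA, -0.15 (SE 0.11) for NFIB, 0.01 (SE 0.15) for NFIC and -0.42 (SE 0.11) for NFIX.

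**Figure D2:**
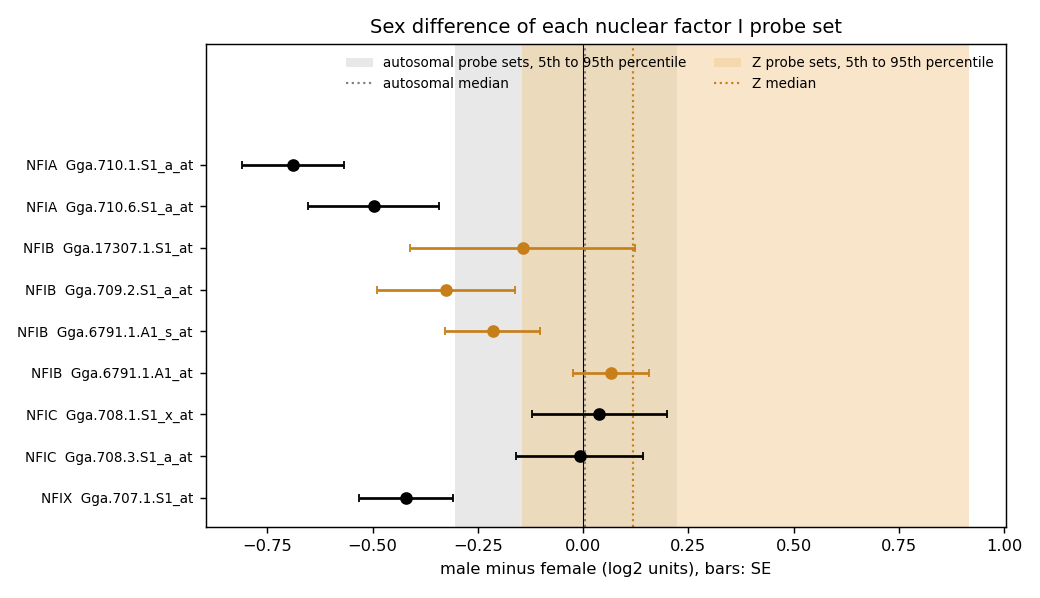
Male minus female difference in log2 units with its SE (horizontal axis) for each NFI probe set (vertical axis), over bands from the 5th to the 95th percentile of autosomal and of Z probe sets, with their medians as dotted lines. The NFIA and NFIX probe sets and Gga.709.2.S1_a_at of NFIB lie to the left of the autosomal band. The Z median is 0.12, while 3 NFIB probe sets lie left of 0. Of these, Gga.709.2.S1_a_at and Gga.6791.1.A1_s_at also lie left of the Z band.

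The order of genes along the Z placed NFIB among neighbours with little male excess. The 10 nearest genes with a probe set, 5 on either side, were each taken by their brightest probe set. Of these, 4 had a difference above 0 and 6 below, with a median of -0.02. All of the 6 but PTPRD lay within their SE of 0, as did TTC39B above it. Other probe sets of MPDZ, FREM1 and PSIP1, counted as below 0, reached 0.11, 0.14 and 0.06. No gene counted as above 0 had a probe set below it. Of all Z probe sets, counted singly and not by gene, 75.5% were above 0. A mean signal above the viral level was seen in 6 of the 10. None of the 10 passed at an adjusted p under 0.05 in limma. Of all genes on any chromosome 0.815% were called higher and 0.108% lower in males, so a count of 0 in 10 says little. An unadjusted limma p under 0.05 was seen in 2, ZDHHC21 and LURAP1L, the latter under the viral level, against 12.7% of all genes on any chromosome. The same 2 of 10 were higher in males without overlap, against 34.4% of Z probe sets. ZDHHC21, a palmitoyltransferase next to NFIB, was the neighbour with the largest male excess by brightest probe set. That probe set gave 5.30, 5.32 and 5.26 in female pools and 5.69, 5.64 and 5.83 in male pools. The difference was 0.42 (SE 0.08) without overlap (limma adjusted p = 0.0839). Over its 3 probe sets the difference of ZDHHC21 ran from 0.05 to 0.43. PTPRD, a receptor phosphatase of synapses 4 genes away on the other side, gave 6.00, 6.87 and 6.55 in female and 4.93, 6.63 and 5.39 in male pools, a difference of -0.83 (SE 0.42, limma adjusted p = 0.551). Male pool 2 overlapped with the female pools there. PSIP1, a chromatin-bound coactivator, gave -0.04 (SE 0.20), and FREM1, a matrix protein, gave -0.05 (SE 0.09). The 4 neighbours above 0 were LURAP1L at 0.26 on 1 side and ZDHHC21, CER1 and TTC39B at 0.42, 0.18 and 0.06 on the other. The lack of male excess in NFIB and some Z genes near it was already known when the family was picked. These neighbours therefore add no separate support.

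**Figure D3:**
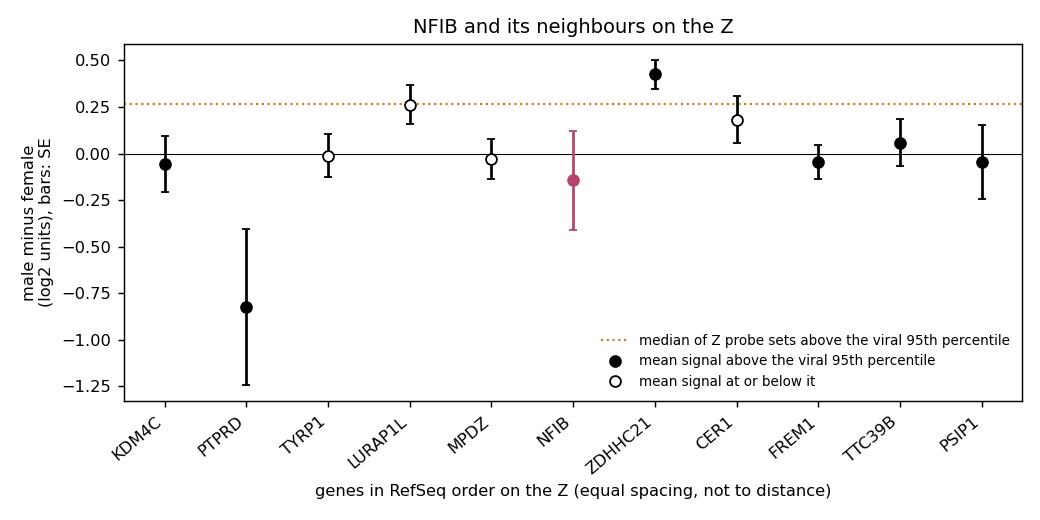
Male minus female difference in log2 units with its SE (vertical axis) for NFIB and the 5 genes with a probe set on either side of it in RefSeq order on the Z (horizontal axis, equal spacing), each by its brightest probe set. ZDHHC21 and LURAP1L lie near or above the dotted median of Z probe sets over the viral level (0.26), while NFIB and 6 neighbours lie below 0.

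Spread between pools of 1 sex, which the choice of members did not use, varied from probe set to probe set within a gene. The pooled SD within sex of NFIB was 0.44 in Gga.17307.1.S1_at, above that of 96.4% of the 3858 probe sets within 0.5 units of its signal. In its other probe sets, Gga.709.2.S1_a_at, Gga.6791.1.A1_s_at and Gga.6791.1.A1_at, it was 0.26, 0.16 and 0.11, above 83.2%, 69.8% and 53.7% of probe sets of like signal. In Gga.17307.1.S1_at male pool 3 lay 0.85 below the mean of the other male pools and female pool 1 lay 0.57 below the mean of the other female pools. Gga.709.2.S1_a_at shared the low male pool 3, at 0.54 below the others, but not the low female pool 1, which lay 0.31 above. The pooled SD of NFIA was 0.18 in Gga.710.1.S1_a_at and 0.24 in Gga.710.6.S1_a_at, above 67.9% and 83.0%. It was 0.25 and 0.23 in the NFIC probe sets, above 84.5% and 90.5%, and 0.15 for NFIX, above 64.8%.

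Female pool 3, where both NFIC probe sets were highest (0.51 and 0.46 above the other female pools), also stood apart in some patterning genes of hindbrain and spinal cord. The mean level of 7 measured HOX markers was 3.85 in that pool, against 5.21 and 5.30 in the other female pools and 4.94 to 5.16 in male pools. HOXB3 gave 3.75 there and 7.62 in both other female pools, while HOXA2, HOXB4 and HOXB8 were under the viral level. HOXA3 gave 3.25 there against 7.06 and 7.20, and HOXB5 4.26 against 6.21 and 6.31. HOXB2, above the viral level, hardly changed, at 4.98 against 5.01 and 5.06. The low mean was thus set mainly by HOXA3, HOXB3 and HOXB5. A high female pool 3 was not particular to NFIC: NFIX lay 0.29 and Gga.6791.1.A1_s_at of NFIB 0.31 above the other female pools. Gga.710.6.S1_a_at of NFIA and Gga.709.2.S1_a_at of NFIB lay 0.12 and 0.10 below them. Both NFIC probe sets were also high in male pool 1, at 0.28 and 0.30 above the other male pools. There the mean of the HOX markers was 5.16. The part of the HOX differences in the NFI values was not tested. NFIA in Gga.710.1.S1_a_at was 8.19 in female pools 2 and 3 alike, and without female pool 3 its difference was -0.63. In Gga.710.6.S1_a_at these pools gave 7.60 and 7.40, and without female pool 3 the difference was -0.54. For NFIX it was then -0.32.

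Genes on which NFI factors act were described from a list of 19, drawn mainly from work in mouse and chick, of which 18 were matched by symbol and 15 lay above the viral level. None passed in either direction over all probe sets (limma, Benjamini-Hochberg), against 0.815% of genes called higher and 0.108% called lower in males when each gene is taken by its brightest probe set. At an unadjusted p under 0.05 there were 2, against 12.7% of all genes. The median difference was -0.09, with 14 of 18 below 0, while the median of all genes was 0.02 and 45.5% of them lay below 0. The 2 were GRIA1, an AMPA receptor subunit, at -0.23 (SE 0.08, limma adjusted p = 0.388), and TNC, the matrix protein tenascin-C, at -0.42 (SE 0.16, limma adjusted p = 0.418). CDH2, the N-cadherin that NFI factors control in mouse cerebellar granule neurons, gave -0.37 (SE 0.17), and SOX9, the partner and inducer of NFIA in gliogenesis, gave -0.25 (SE 0.13). The astrocyte gene GFAP gave 0.02 (SE 0.11). The list was chosen with earlier results of these data known, so nothing is read from its counts.

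Partners of NFI factors and other gliogenic regulators had mostly negative differences, and again none of 18 measured, of 21 listed, passed over all probe sets (limma, Benjamini-Hochberg). At an unadjusted p under 0.05 there were 6, all lower in males and 1 of them, SKI, under the viral level, against 12.7% of all genes in either direction. The median difference was -0.16, and 16 of 18 lay below 0, against 45.5% of all genes. The other 2 were HES5 and STAT3, the latter at 0.09 (SE 0.10). Neural progenitor and neuron markers had medians of -0.11 and -0.31, with 10 of 11 and 9 of 11 below 0. Some of the progenitor markers stand in this list too. A shift below 0 was thus not particular to the partners or the target genes. The other marker lists described below had medians above 0. HES5 gave 10.01, 10.19 and 10.27 in female and 10.29, 10.35 and 10.33 in male pools. It was higher in males without overlap, with a difference of 0.17 (SE 0.09, limma adjusted p = 0.558). NOTCH1, the receptor through which Notch signalling keeps progenitors and induces NFIA, gave 9.76, 9.73 and 9.81 in female pools and 9.27, 9.05 and 9.53 in male pools. The sexes did not overlap, with a difference of -0.48 (SE 0.12, limma adjusted p = 0.223). SOX2, which maintains neural progenitors, gave 5.90, 5.95 and 5.90 against 5.68, 5.56 and 5.64, also without overlap, a difference of -0.29 (SE 0.07, limma adjusted p = 0.211). ZBTB20, a zinc finger factor that acts with SOX9 and NFIA in mouse astrocyte formation, gave -0.49 (SE 0.19) with overlap, and EMX2, a forebrain patterning factor, gave -0.27 (SE 0.10). SOX9 stands in both lists. This list too was chosen with earlier results of these data known, so nothing is read from its counts.

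**Figure D4:**
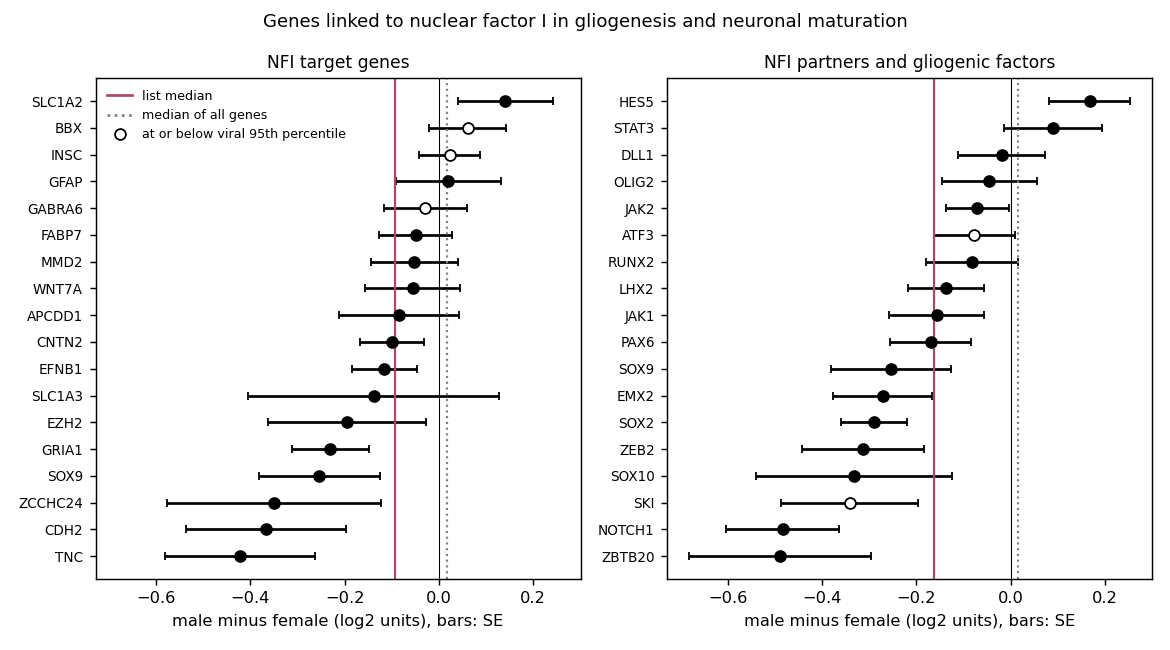
Male minus female difference in log2 units with its SE (horizontal axes) for the 18 measured NFI target genes (left) and the 18 measured partners and gliogenic factors (right); the solid line is the median of the list and the dotted line that of all genes, 0.02. The list medians are -0.09 and -0.16, and SLC1A2 and HES5 are the rightmost points.

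Markers of cell types were compared between female and male pools, and no fit related them to NFIA or NFIX. The mean level of 11 neural progenitor markers was 9.34 to 9.40 in female pools and 9.19 to 9.23 in male pools, and 1 of them, NES, which encodes nestin, fell in males, by 0.55 log2 units (SE 0.08, limma adjusted p = 0.0380), against 0.108% of all genes called lower. The NES call was lost whichever single pool was left out (limma adjusted p of 0.0756 to 0.163) and with the replicate number as a block (limma adjusted p = 0.0674), with NES lower in males in each fit. Without adjustment 3 of the 11, NES, SOX2 and NOTCH1, had a limma p under 0.05, all lower in males, against 12.7% of all genes in either direction. SOX2 and NOTCH1 were already counted among the partners and are not separate observations here. PAX6 and HES5 also stand among the partners, and FABP7 and SLC1A3 among the target genes. The mean of 11 neuron markers was 9.48 to 9.74 in female and 9.30 to 9.51 in male pools. None passed, and 3 of the 11 had an unadjusted p under 0.05 in limma, all lower in males, against 12.7% of all genes in either direction. For 7 astroglial markers the means were 5.22 to 5.47 and 5.46 to 5.56, for 9 markers of mesenchyme and meninges 4.80 to 4.83 and 4.84 to 4.92, and for 8 muscle markers 4.18 to 4.24 and 4.29 to 4.33. The largest astroglial difference was that of AGT, 0.71 (SE 0.47). AGT was 4.92 in female pool 1, against 6.85 and 6.72 in the other female pools. GFAP, GLUL and GJA1 gave 0.02, 0.01 and -0.03. The muscle markers MYL1, TNNC2, ACTA1 and MYOD1 were under the viral level. For 4 globin markers the means were 11.4 to 12.1 in female and 11.9 to 12.4 in male pools, and no member of these last 4 groups passed (limma). Without adjustment 1 mesenchyme, 2 muscle and 1 globin marker had a limma p under 0.05, against 12.7% of all genes. All were higher in males without overlap, PRRX1 by 0.26, MYL1 by 0.38, TNNI2 by 0.33 and HBZ by 0.94 log2 units. Endothelial (5.17 to 5.26 and 5.14 to 5.38), microglial (4.94 to 4.98 and 4.91 to 5.08), oligodendrocyte (5.89 to 6.03 and 5.70 to 6.12) and eye or pigment markers (3.98 to 4.02 and 3.93 to 4.07) overlapped between female and male pools, and none passed. Of the 7 endothelial markers 1, TEK on the Z, had an unadjusted limma p under 0.05, higher in males by 0.27. The part of these in the NFI values was not tested. The marker lists were chosen with earlier results of these data known, so nothing is read from their counts. In pooled brain tissue, fewer cells of a type and less RNA per cell cannot be told apart.

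The genes whose profiles over the 6 pools were most like each member, by the smallest root mean square difference between profiles centred on their own means, were sought among 10599 genes above the viral level. For NFIA in Gga.710.1.S1_a_at these were PLA2G5, EIF4G3 and PTPRZ1, at 0.10, 0.11 and 0.12 log2 units, where a gene of median likeness lay 0.40 away. Their male minus female differences were -0.69, -0.78 and -0.53, so they share the contrast on which the family was picked. For NFIB in Gga.17307.1.S1_at they were FRMD3 and MAP1B, both on the Z, at 0.12 and 0.15, and the autosomal DIDO1 at 0.15. MAN2C1, CCNI and INPP5B were nearest to NFIC, at 0.05 to 0.07, and SYT1, LHX5 and NUP214 to NFIX, at 0.08 each. A gene of median likeness lay 0.39 from NFIB, but only 0.24 from NFIC and 0.28 from NFIX, which varied less over the pools. The nearest of 10599 genes must lie under the median by the way they were sought, so nothing is read from that distance. These names describe the 6 pools and say nothing of shared function or control.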

How the data were processed

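Expression was measured on 6 arrays, 3 per sex. The deposited log2 values are the authors' RMA output, and the submitters' processing notes name the affy package. Its version was not given in the sources used here. The method gives arrays 1 intensity distribution, so a difference common to most genes would be lost. The array medians lay between 4.84 and 4.87, and no further scaling was applied. The 153 control and 689 viral probe sets were left out of the tests. limma 3.58.1 (R 4.3.3; lmFit, eBayes) was fitted with sex as the only term over 37693 chicken probe sets, two-sided, with Benjamini-Hochberg adjustment and a threshold of 0.05, and was tested on simulated data. Precision is limited by the number of arrays. P-values measure only the spread between these pools.

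Genes came from probe sets with 1 symbol (27166 chicken probe sets, against 177 with several and 10350 with none), and chromosomes and gene order from RefSeq through gene identifiers. No coordinates are printed, since the array is tied to no build. List genes were matched by symbol and stood by their brightest probe set. From each list the members past the threshold, at most 4, and then the 4 of smallest p were named, besides every NFI probe set. Other markers and list members were named after their values were seen. The members and lists were chosen with earlier results of these data known. Deviations of same-numbered female and male pools had correlations of 0.01, 0.15 and 0.32, and those of differently numbered pools -0.24 to 0.11. The labels name no pairs, so numbers were not taken as pairs in the main fit. A fit with the replicate number as a block is given below. No sequences are shown.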

Additional observations from a re-analysis of the deposited data

How the results depend on the processing

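The number of NFI probe sets past the threshold was 0 in the 12 alternatives run on probe sets, and 0 genes of either list passed in any of these or with a gene's probe sets averaged. With the replicate number as a block the NFI count was 0 as well, while 245 of all chicken probe sets passed against 209. The labels do not say whether a number marks a shared batch. Over all chicken probe sets the count fell to 113, 129 and 130 when female pool 2, female pool 3 or male pool 1 was left out. Both NFIA probe sets and NFIX were lower in males in all 12 alternatives. NFIB in Gga.17307.1.S1_at lay between -0.37 and 0.14 when pools were left out in turn. NFIC in Gga.708.1.S1_x_at lay between -0.0556 and 0.208 and in Gga.708.3.S1_a_at between -0.12 and 0.14. The last turned to 0.00875 with array weights, 0.00198 with autosomal median centring and 0.000475 with autosomal quantile normalization, values far under its SE. Signal over background limits NFIB in Gga.6791.1.A1_at, which a filter at the viral level removed. The cause of these changes was not tested.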
